A study of Mus musculus with 8 samples.

Results

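Interferon-stimulated genes are genes whose transcription rises in cells that sense viral or misplaced nucleic acid, and 9 of them, Isg15, Ifit1, Ifit3, Ifi27l2a, Irf7, Stat2, Oasl2, Bst2 and Rsad2, were followed in the tibialis anterior of old mice. They were chosen by symbol as genes that mitochondrial DNA released into the cytosol can induce, and all 9 were found by their Ensembl IDs among the 48328 genes of the deposited table. Total RNA from the lower part of this fast hindlimb muscle was sequenced in 8 C57BL/6J mice aged 24 months. There were 4 K320E-skm mice, in whose skeletal muscle fibres a dominant mutant of Twinkle, the mitochondrial DNA helicase, is made, and 4 wild-type mice. Each genotype had 2 libraries labelled male and 2 labelled female, and no treatment is given for either. The promoter that drives the mutant protein is not given in the sources used here. Bulk tissue was used, so fewer cells of a type and less RNA per cell cannot be told apart.

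In the textbook pathway, DNA in the cytosol is bound by cGAS, whose product activates STING and, through the kinase TBK1, the factor IRF3, so that interferon is made. Secreted interferon binds its receptor, the kinases JAK1 and TYK2 phosphorylate STAT2, which joins IRF9 in a complex that binds the interferon-stimulated response element of target promoters. Some targets, IRF7 among them, feed the response, and others, such as the IFIT, OAS and viperin proteins, hinder viral RNA or protein.

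The response element is visible in the promoters of several members, given for the 4 members whose promoters held more than 1 core of it and, beside them, for Irf7, whose promoter held none. Sequences are from RefSeq on GRCm38.p6 and run from 250 bases before the annotated start of transcription to 50 bases after it, on the strand of the gene. Capitals mark the core of the response element, which is GAAA, any 2 bases and GAAA again. It was searched on both strands, where the other strand reads TTTC, any 2 bases and TTTC, and overlapping matches run together. The coordinates are chr4:156200769-156201068 for Isg15 (minus strand), chr19:34640639-34640938 for Ifit1 (plus strand) and chr19:34583279-34583578 for Ifit3 (plus strand). They are chr8:71537423-71537722 for Bst2 (minus strand) and chr7:141266375-141266674 for Irf7 (minus strand).
Isg15: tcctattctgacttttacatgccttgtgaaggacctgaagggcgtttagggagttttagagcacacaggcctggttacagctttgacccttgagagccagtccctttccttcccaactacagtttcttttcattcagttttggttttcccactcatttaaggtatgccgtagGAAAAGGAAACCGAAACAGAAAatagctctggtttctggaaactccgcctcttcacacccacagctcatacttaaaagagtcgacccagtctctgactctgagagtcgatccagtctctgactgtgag
Ifit1: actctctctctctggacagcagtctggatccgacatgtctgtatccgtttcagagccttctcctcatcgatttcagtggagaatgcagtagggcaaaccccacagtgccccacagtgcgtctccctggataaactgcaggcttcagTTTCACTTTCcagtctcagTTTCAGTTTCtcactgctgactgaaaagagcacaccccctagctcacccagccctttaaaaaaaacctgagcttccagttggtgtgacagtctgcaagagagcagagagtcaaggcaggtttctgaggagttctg
Ifit3: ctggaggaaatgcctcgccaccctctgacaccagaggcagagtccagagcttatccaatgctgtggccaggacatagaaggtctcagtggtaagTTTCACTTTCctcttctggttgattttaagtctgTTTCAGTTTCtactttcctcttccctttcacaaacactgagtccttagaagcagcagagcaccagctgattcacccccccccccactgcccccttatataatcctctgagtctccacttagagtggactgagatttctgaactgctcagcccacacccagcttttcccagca
Bst2: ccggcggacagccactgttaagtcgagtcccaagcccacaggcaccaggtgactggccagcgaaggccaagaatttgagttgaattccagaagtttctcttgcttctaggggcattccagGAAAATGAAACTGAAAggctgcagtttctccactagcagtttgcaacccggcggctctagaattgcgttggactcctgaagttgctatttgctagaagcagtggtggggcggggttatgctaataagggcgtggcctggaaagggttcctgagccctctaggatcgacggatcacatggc
Irf7: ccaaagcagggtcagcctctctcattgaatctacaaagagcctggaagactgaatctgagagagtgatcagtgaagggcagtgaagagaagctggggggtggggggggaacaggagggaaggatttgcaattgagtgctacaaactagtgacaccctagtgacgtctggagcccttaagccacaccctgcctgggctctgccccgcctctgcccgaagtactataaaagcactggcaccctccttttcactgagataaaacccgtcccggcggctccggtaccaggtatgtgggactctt
The Isg15 promoter held 3 overlapping cores from position −78 relative to the start, and that of Bst2 held 2 from position −130. In Ifit1 the cores began at −104 and −85, and in Ifit3 at −156 and −122, with the letters TTTCACTTTC farther from the start and TTTCAGTTTC nearer to it in both genes. Of the 8 members with a promoter in the table, 6 held the core, those of Stat2 and Rsad2 once each, against 3.44% of the 32851 promoters of the same length. The windows of Irf7 and Oasl2 did not hold these letters. The letters TTCNNNGAA, the core of the interferon gamma activated site, stood in 1 of the 8 windows, that of Bst2, against 8.3% of all promoters. A match describes the sequence and is not a measured binding site.

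Values are FPKM, fragments divided by transcript length and by the mapped fragments of the library, deposited by the authors. In long genes with few fragments the values stepped in whole fragments, which gave estimates of 37.5 to 49.0 M fragments per library. Twnk, the gene of Twinkle, had values of 3.82, 4.93, 5.06 and 4.66 FPKM across K320E-skm 1 to 4, against 2.16, 2.4, 2.21 and 2.7 FPKM across wild-type 1 to 4. The library K320E-skm 4 is labelled male, yet held 10.2 FPKM of Xist and 0.0117 FPKM of the Y-linked gene Ddx3y. Because the main test has a term for sex, some results are also given without this library. Genes of the mitochondrial genome made up 53.8% to 59.8% of the summed FPKM in K320E-skm and 44.0% to 56.3% in wild-type libraries. A larger share of these genes lowers the FPKM of all others. Fast fibre genes were abundant in all libraries, with Ckm, the muscle creatine kinase, between 5420 and 7410 FPKM, except Myh4, whose value was 0 for replicates 2, 3 and 4 of K320E-skm and for replicate 4 of wild-type. Such a 0 may be an estimate that failed.

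None of the 9 members separated the genotypes, and each varied several-fold among mice of 1 genotype. The same mice were high for most members. K320E-skm 1 and K320E-skm 3 were among the 4 highest libraries for all 9 members, and wild-type 1 and wild-type 2 for 7 each. K320E-skm 4 and wild-type 3 were among the 4 lowest libraries for all 9 members and wild-type 4 for 8. K320E-skm 2 was among the 4 lowest for 6 members.

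**Figure D1:**
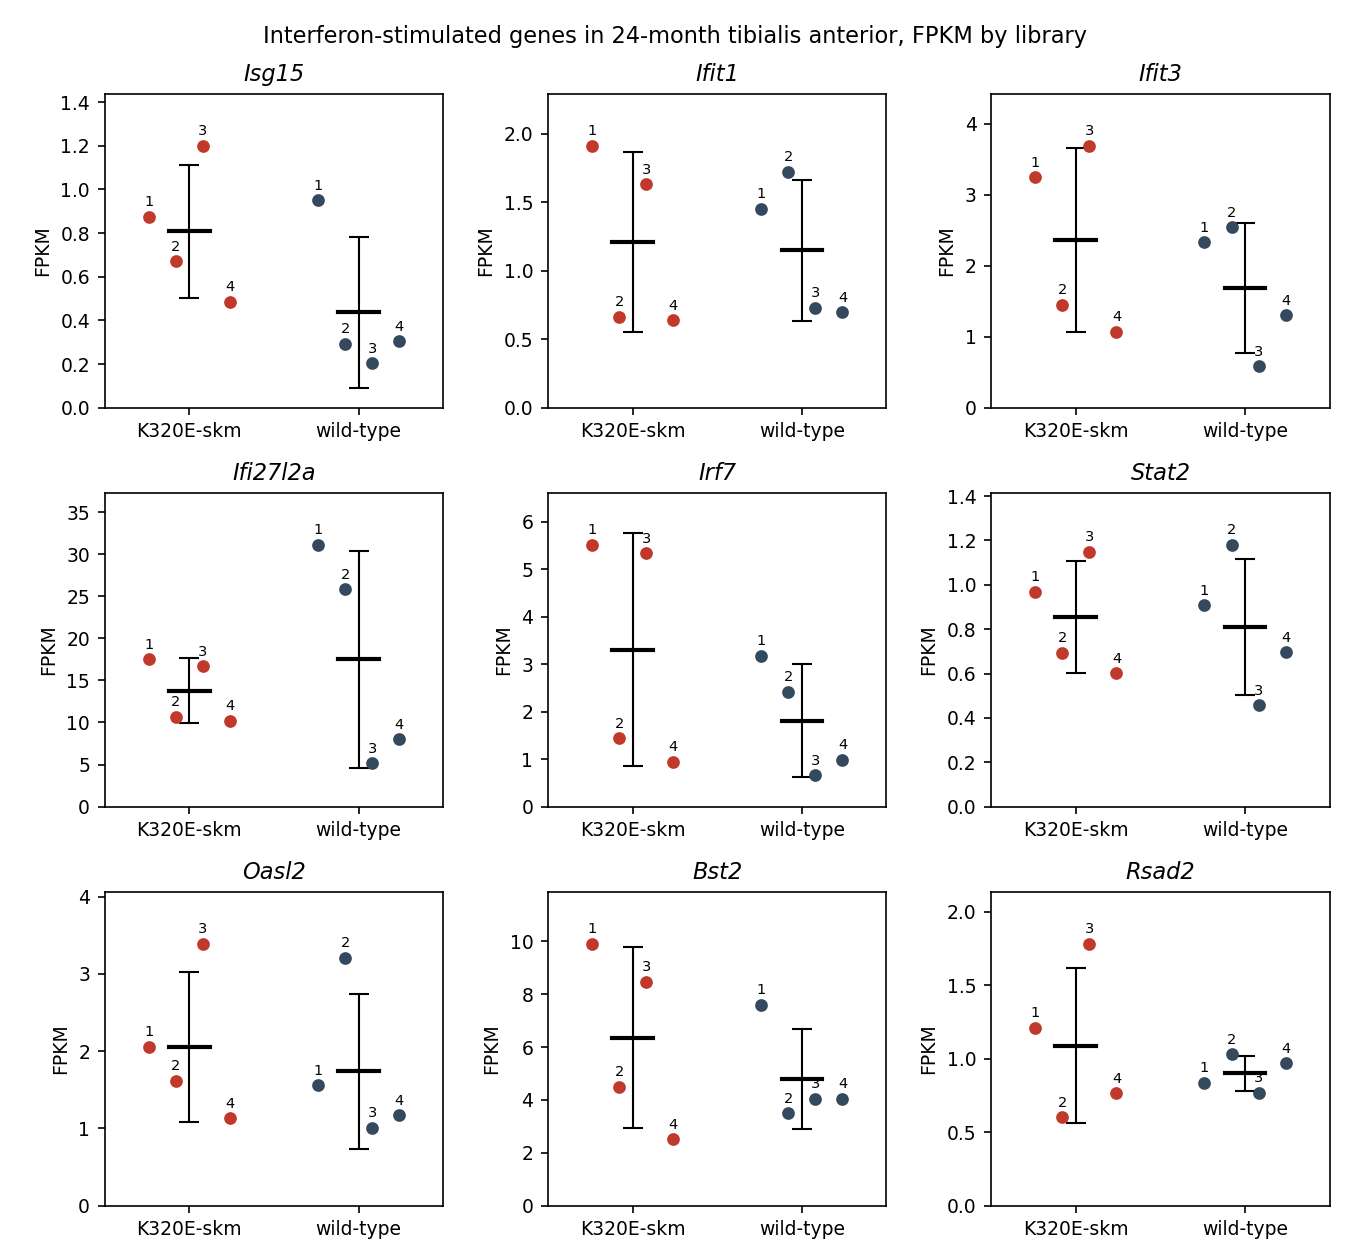
FPKM of each of the 9 members in each library, with K320E-skm (red) left of wild-type (dark); numbers are replicate numbers, thick bars means and thin bars 1 SD of 4 libraries. The genotypes overlap in every panel, and replicates 1 and 3 of K320E-skm and, in most panels, 1 and 2 of wild-type lie above the others.

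The signal carriers and regulators come first. Stat2 (ENSMUSG00000040033, chromosome 10, 128270559 to 128292849; GRCm38 here and for the other members, all protein-coding), the interferon-specific member of the STAT family, had values of 0.969, 0.693, 1.15 and 0.602 FPKM across K320E-skm 1 to 4, against 0.907, 1.18, 0.457 and 0.695 FPKM across wild-type 1 to 4. The highest and the lowest library were both wild-type, and the genotypes overlapped. K320E-skm muscle averaged 0.854 ± 0.253 FPKM against 0.81 ± 0.309 FPKM in wild-type (SD, n = 4 each, exact two-sided permutation p = 0.857). Stat2 was below the filter of the test over all genes, which asked for 1 FPKM in at least 4 libraries, as were Isg15 and Rsad2.

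Irf7 (ENSMUSG00000025498, chromosome 7, 141262706 to 141266481), the factor that amplifies interferon production, had values of 5.51, 1.44, 5.33 and 0.944 FPKM across K320E-skm 1 to 4, against 3.18, 2.42, 0.664 and 0.986 FPKM across wild-type 1 to 4. It varied 5.83-fold among K320E-skm and 4.79-fold among wild-type mice, while its mean was 1.82-fold higher in K320E-skm muscle. K320E-skm muscle averaged 3.31 ± 2.45 FPKM against 1.81 ± 1.19 FPKM in wild-type (SD, n = 4 each, exact permutation p = 0.314). The log2 fold change of FPKM + 1 was 0.51 (SE 0.45, limma adjusted p = 0.613), with a 95% interval of −0.51 to 1.53. Without K320E-skm 4 it was 0.88 (SE 0.42, adjusted p = 0.459), and without K320E-skm 1 it was 0.18. Irf7 overlaps Phrf1 on the opposite strand, and the strand setting of the authors' quantification is not given in the sources used here, so reads of the pair may be mixed.

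The genes of the RNA-binding IFIT proteins Ifit3 and Ifit1 both lie on chromosome 19. Ifit3 (ENSMUSG00000074896, 34583531 to 34588731) had values of 3.25, 1.45, 3.69 and 1.07 FPKM across K320E-skm 1 to 4, against 2.33, 2.54, 0.581 and 1.3 FPKM across wild-type 1 to 4. The lowest value was that of wild-type 3 and the highest that of K320E-skm 3. The mean was 2.36 ± 1.3 FPKM for K320E-skm against 1.69 ± 0.916 FPKM for wild-type (SD, n = 4 each, exact permutation p = 0.429), with a log2 fold change of 0.31 (SE 0.32, limma adjusted p = 0.662, 95% interval −0.41 to 1.03). Its transcript is 98% identical over 1697 bases to that of Ifit3b, which was at 0.864 to 2.0 FPKM in K320E-skm and 0.989 to 1.9 FPKM in wild-type muscle. Fragments of this pair may have been divided between them, so the value of either gene is uncertain.

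Ifit1 (ENSMUSG00000034459, 34640871 to 34650009), which binds RNA with a foreign cap, had values of 1.91, 0.663, 1.63 and 0.637 FPKM across K320E-skm 1 to 4, against 1.45, 1.72, 0.728 and 0.698 FPKM across wild-type 1 to 4. Its values fell into 2 sets of 4 libraries with nothing between them, and each set held 2 mice of either genotype. The gap took 61.1% of the range of its log2 levels. The genotype means were nearly equal, at 1.21 ± 0.655 FPKM in K320E-skm against 1.15 ± 0.516 FPKM in wild-type (SD, n = 4 each, with a difference at least as large in 58 of the 70 assignments of the exact permutation test), and the log2 fold change was 0.02 (SE 0.24, limma adjusted p = 0.971, 95% interval −0.53 to 0.57). It passed the filter through the 4 libraries of the upper set, 2 of each genotype.

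Oasl2 (ENSMUSG00000029561, chromosome 5, 114896936 to 114912234), a relative of the enzymes that activate RNase L, had values of 2.06, 1.62, 3.39 and 1.13 FPKM across K320E-skm 1 to 4, against 1.56, 3.21, 1.01 and 1.17 FPKM across wild-type 1 to 4. A single library of each genotype, K320E-skm 3 and wild-type 2, stood above the other 6. The mean was 2.05 ± 0.972 FPKM for K320E-skm against 1.74 ± 1.01 FPKM for wild-type (SD, n = 4 each, exact permutation p = 0.543), with a log2 fold change of 0.17 (SE 0.24, limma adjusted p = 0.756, 95% interval −0.38 to 0.72).

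Rsad2 (ENSMUSG00000020641, chromosome 12, 26442746 to 26456452) encodes viperin, an enzyme that makes a chain-terminating nucleotide. It had values of 1.21, 0.601, 1.78 and 0.764 FPKM across K320E-skm 1 to 4, against 0.837, 1.03, 0.767 and 0.967 FPKM across wild-type 1 to 4. Both the highest and the lowest library were K320E-skm, and the wild-type libraries lay between them. The mean was 1.09 ± 0.526 FPKM for K320E-skm against 0.9 ± 0.12 FPKM for wild-type (SD, n = 4 each, exact permutation p = 0.6).

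The membrane proteins of the set were the most abundant members. Bst2 (ENSMUSG00000046718, chromosome 8, 71534255 to 71537456) encodes tetherin, which holds budding virus at the cell surface. It had values of 9.91, 4.51, 8.48 and 2.52 FPKM across K320E-skm 1 to 4, against 7.6, 3.5, 4.05 and 4.05 FPKM across wild-type 1 to 4. The K320E-skm libraries spanned the whole range of the wild-type ones. The mean was 6.35 ± 3.43 FPKM for K320E-skm against 4.8 ± 1.88 FPKM for wild-type (SD, n = 4 each, exact permutation p = 0.457), with a log2 fold change of 0.26 (SE 0.36, limma adjusted p = 0.747, 95% interval −0.54 to 1.05). Without K320E-skm 4, Bst2 was at 0.65 (SE 0.24, unadjusted p = 0.0243, adjusted p = 0.411), and without K320E-skm 1 at 0.0.

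Ifi27l2a (ENSMUSG00000079017, chromosome 12, 103442167 to 103443680), a small membrane protein gene that responds strongly to type I interferon, had the highest level of the set. It had values of 17.5, 10.7, 16.7 and 10.2 FPKM across K320E-skm 1 to 4, against 31.1, 25.8, 5.15 and 7.99 FPKM across wild-type 1 to 4. Here the 2 highest and the 2 lowest libraries were all wild-type, a 6.03-fold range, while K320E-skm muscle spanned 1.71-fold. The mean was 13.8 ± 3.87 FPKM for K320E-skm against 17.5 ± 12.9 FPKM for wild-type (SD, n = 4 each, exact permutation p = 0.6). The log2 fold change of −0.03 (SE 0.50, limma adjusted p = 0.978, 95% interval −1.16 to 1.09) became 0.14 after median-ratio rescaling of the libraries.

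Isg15 (ENSMUSG00000035692, chromosome 4, 156199424 to 156200818) encodes a ubiquitin-like protein that is attached to other proteins. K320E-skm 1 to 4 held 0.875, 0.671, 1.2 and 0.485 FPKM of it, against 0.952, 0.293, 0.203 and 0.304 FPKM in wild-type 1 to 4. All 4 K320E-skm libraries lay above 3 of the 4 wild-type libraries, and wild-type 1 lay above 3 of the 4 K320E-skm libraries. The mean was 0.807 ± 0.305 FPKM for K320E-skm against 0.438 ± 0.346 FPKM for wild-type, a 1.84-fold ratio (SD, n = 4 each, exact permutation p = 0.2, and 0.0857 after rescaling). These levels correspond to an estimated 14 to 41 fragments in K320E-skm and 8 to 29 in wild-type libraries. At so few fragments counting error adds to the spread, and its share was not measured. With no filter on low values, the log2 fold change was 0.34 (SE 0.20, limma adjusted p = 0.66).

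The share of the variance of log2 levels that lay between the genotype means was 32.9% in Isg15, 12.5% in Irf7 and less than these in each of the other 7 members. With 4 libraries a group, such a share is above 0 also where genotype has no effect, so it does not measure one. Over all genes tested, limma called 2 of 10521 genes, or 0.019%, at an adjusted p under 0.05, and none of the 6 tested members. Calls in the upward direction made up 0.0095%. With no filter, when all 9 members were tested, 0.00361% of 27723 genes and none of the 9 were called. At an unadjusted p under 0.05 there were 1383 genes, or 13.1%, and again none of the 6. The genotypes did not overlap for 1044 tested genes, or 9.92%, and for 0 of the 6. Of the 6 members 5 had a log2 fold change above 0, against 20.5% of all genes tested. The members varied together across the libraries, as described below, so counts over the 6 are not 6 separate observations. The median log2 fold change over the 6 was 0.21, against −0.14 for all genes tested, and all 6 lay above that median gene. This median ranged from 0.03 to 0.45 when 1 library was left out at a time, the lowest without K320E-skm 1 and the highest without wild-type 1. Without K320E-skm 4, whose sex label is in doubt, the median was 0.39. The log2 fold changes of Ifit1, Ifit3, Ifi27l2a and Oasl2 were then 0.17, 0.51, 0.1 and 0.27. The limma intervals of 4 of the 6 members, Ifit3, Ifi27l2a, Irf7 and Bst2, reached above 1 on the log2 scale of FPKM + 1. A difference of that size was not excluded for these 4, and the interval of Ifi27l2a also reached down to −1.16. For low genes this scale shows less than the FPKM ratio, so no such limit on the ratio follows for Ifit1 and Oasl2.

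**Figure D2:**
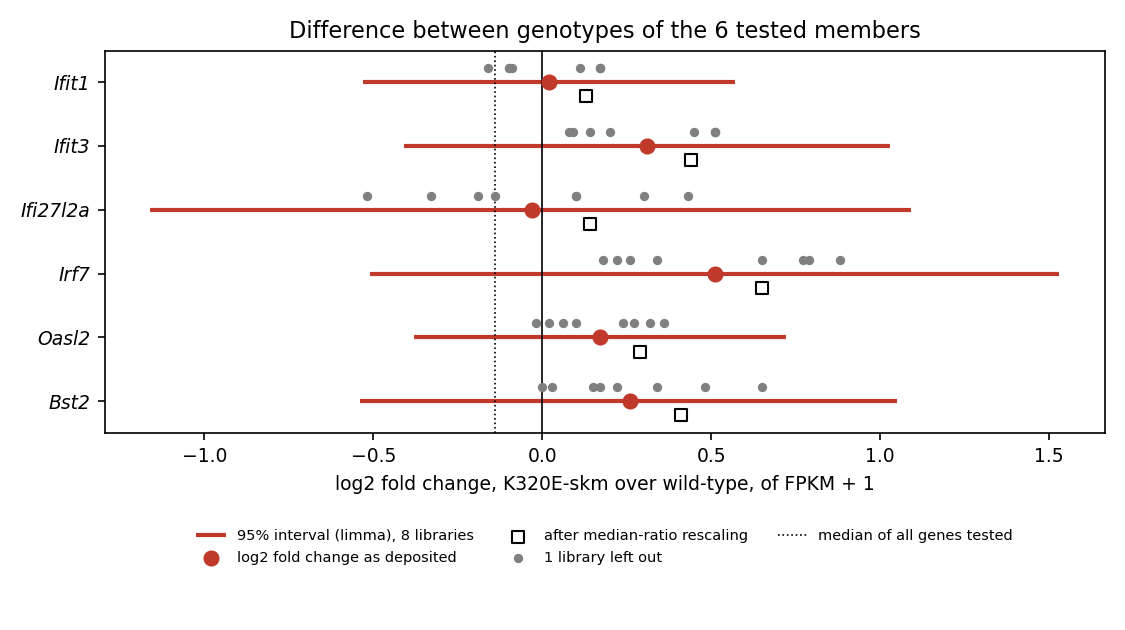
Log2 fold change of FPKM + 1, K320E-skm over wild-type, for the 6 members that passed the filter, with the limma 95% interval (red), the value after median-ratio rescaling (squares) and the values with 1 library left out (grey). Every interval crosses 0, and the dotted line marks the median of all genes tested at −0.14.

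The effect of genotype was also compared between the sex labels. The interaction of genotype and sex label had unadjusted p of 0.358 for Bst2 and 0.815 to 0.998 for the other 5 tested members (limma), where 2.27% of all tested genes had an unadjusted p under 0.05. Libraries labelled male and female differed by −0.41 on the log2 scale for Oasl2 (male minus female, unadjusted p = 0.124) and by less than this for the other 5. These terms rest on the label of K320E-skm 4.

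The joint variation of the members was measured by Pearson's r of log2(FPKM + 1) over the 8 libraries. Ifit1, whose libraries fell into separate sets, was left out of these correlations, which leaves 28 pairs, tested together with the 8 correlations of the members with leukocyte markers. In all 28 pairs r was positive, between 0.34 for Ifi27l2a with Rsad2 and 0.96 for Ifit3 with Irf7, with a median of 0.74. Exact permutation p was under 0.05 for 18 pairs before and for 4 after adjustment over the 36 relations.

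The 4 pairs were made of Ifit3, Irf7, Stat2 and Oasl2. Ifit3 and Irf7 had r = 0.96 (exact permutation p = 0.000273, adjusted 0.0067) and Spearman's rho = 0.95 (p = 0.00114, adjusted 0.0205). Without the 2 libraries farthest from the median of Ifit3, wild-type 3 and K320E-skm 3, r was again 0.96. Stat2 and Oasl2 had r = 0.93 (exact p = 0.000372, adjusted 0.0067) and rho = 0.9 (p = 0.00456, adjusted 0.0329), with r = 0.91 without the 2 farthest libraries. Ifit3 and Stat2 had r = 0.94 (exact p = 0.00119, adjusted 0.0143) and rho = 0.9 (p = 0.00456, adjusted 0.0329), with r = 0.88 without the 2 farthest.

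Ifit3 and Oasl2 had r = 0.85 (exact p = 0.00677, adjusted 0.0488), rho = 0.95 (p = 0.00114, adjusted 0.0205) and r = 0.74 without the 2 farthest libraries. Without K320E-skm 4 this pair had r = 0.83 and an adjusted p of 0.103, and the other 3 pairs passed. With 6 libraries left, no pair passed the adjustment. Leaving out the 2 libraries farthest from the median of Isg15 gave r of −0.11 with Oasl2 and −0.06 with Rsad2. Leaving out the 2 farthest from the median of Bst2 gave −0.06 with Rsad2. In each pair the farthest libraries were chosen by the first gene only, and these 3 relations rested on them.

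The same relations stood within the genotypes. With each genotype's mean subtracted, r was positive in all 28 pairs with a median of 0.73, and 7 pairs passed by permutation within genotypes. Bst2 had r = 0.86 with Irf7 and r = 0.43 with Oasl2. Without the 2 libraries farthest from the median of Irf7, K320E-skm 1 and 3, r with Irf7 was 0.62. Without the 2 farthest from the median of Oasl2, K320E-skm 3 and wild-type 2, r with Oasl2 was 0.84. Different libraries were left out for these 2 relations, and each r changed with them.

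**Figure D3:**
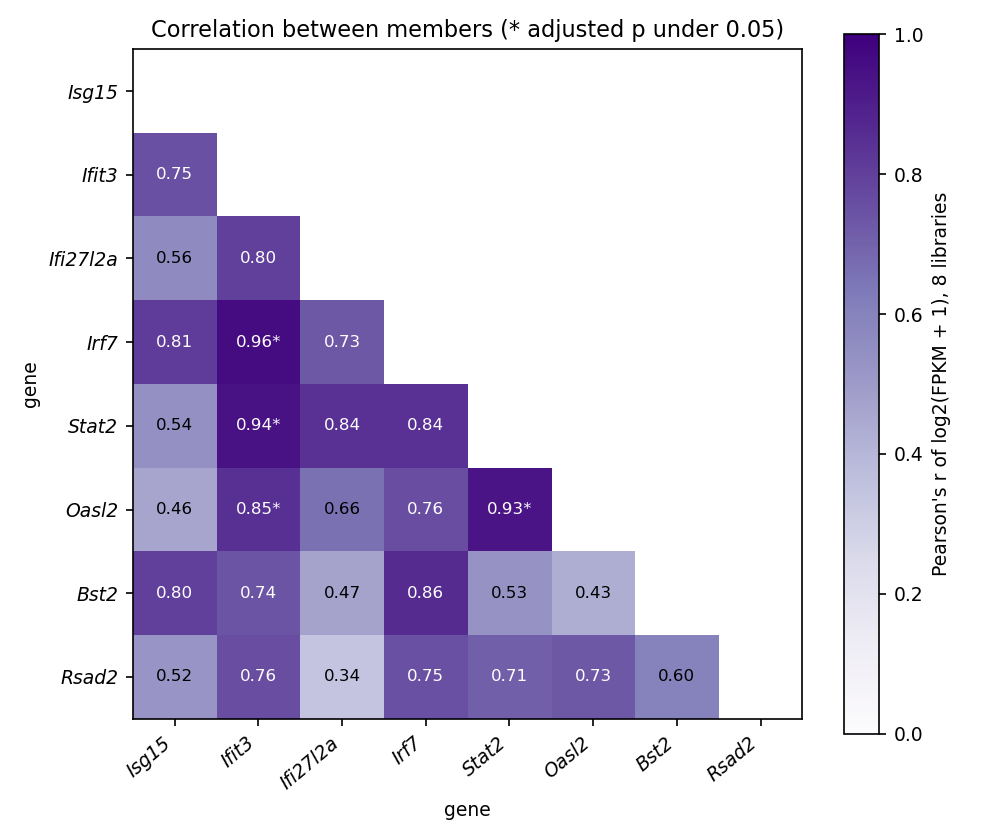
Pearson's r of log2(FPKM + 1) over the 8 libraries for the 28 pairs of 8 members; darker cells are closer to 1 and a star marks an adjusted exact permutation p under 0.05. Ifit3, Irf7, Stat2 and Oasl2 hold the 4 starred pairs.

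Genes upstream of the members were then described from lists of the pathway. Their counts of higher and lower genes stand against 20.5% of all tested genes above 0 and a median gene at −0.14 as deposited, which rescaling puts at 0.00. Many genes of these lists varied together across the libraries, so the counts are not of separate observations. The 21 interferon ligand genes were all below the filter, 15 of them listed at 0 in every library, Ifnb1 included. The highest value of any ligand was 0.101 FPKM, of Ifnk in wild-type 2. Cgas and Tmem173, the gene of STING, were below the filter, and were picked for mention with their values in view. Cgas had values of 0.178, 0.181, 0.118 and 0.067 FPKM across K320E-skm 1 to 4, against 0.111, 0.163, 0.0764 and 0.0509 FPKM across wild-type 1 to 4 (exact permutation p = 0.314). Tmem173 had a mean of 0.937 ± 0.208 FPKM in K320E-skm, against 0.908 ± 0.308 FPKM in wild-type muscle (SD, n = 4 each, exact permutation p = 0.886). Both overlapped between the genotypes. Ikbke, the gene of a kinase related to TBK1, was also below the filter. It is named with its values in view, because the genotypes did not overlap, as in 9.92% of the genes tested. It had values of 0.22, 0.257, 0.381 and 0.346 FPKM across K320E-skm 1 to 4, against 0.793, 0.86, 0.503 and 0.477 FPKM across wild-type 1 to 4 (exact permutation p = 0.0286, unadjusted).

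Of 21 sensors, adaptors and kinases, 11 were tested and none was called by limma or had an unadjusted p under 0.05; 4 were higher and 7 lower, with a median of −0.06. Of the 11, 8 lay above the median gene, and their median was 0.07 after rescaling. The exonuclease gene Trex1, which clears cytosolic DNA, had a mean of 6.08 ± 1.85 FPKM in K320E-skm, against 5.16 ± 0.849 FPKM in wild-type muscle, or 0.18 on the log2 scale (limma adjusted p = 0.617). Samhd1, which degrades nucleotides, was at 0.07, and the RNA sensor Ifih1 and the kinase gene Eif2ak2 were at −0.26 and −0.25. Mavs, the adaptor of the RNA sensors on mitochondria, was at −0.11, and at 0.05 after rescaling.

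Of 11 receptors and signal carriers, 10 were tested. None of these was called or had an unadjusted p under 0.05 in limma, 4 being higher and 6 lower with a median of −0.04. Of the 10, 6 lay above the median gene, and their median was 0.11 after rescaling. In 2 of the 10, the kinase genes Jak1 and Jak2, the genotypes did not overlap, against 9.92% of all genes tested. Jak1 had a mean of 12.9 ± 0.213 FPKM in K320E-skm, against 15.5 ± 2.72 FPKM in wild-type muscle (SD, n = 4 each, exact permutation p = 0.0286, the smallest that 4 against 4 allows). Jak2 had 4.5 ± 0.41 FPKM in K320E-skm, against 5.62 ± 0.808 FPKM in wild-type muscle. Their log2 fold changes were −0.23 and −0.26 as deposited (limma adjusted p = 0.457 and 0.397), against −0.14 for the median gene, and −0.06 and −0.11 after rescaling. The interferon gamma receptor genes Ifngr1 and Ifngr2 were at 0.07 and −0.07, the second at 0.1 after rescaling.

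Among the other interferon regulatory factors, none of 5 tested was called. Irf2, which antagonises Irf1 at target promoters, had values of 3.26, 3.27, 3.21 and 3.72 FPKM across K320E-skm 1 to 4, against 5.82, 4.52, 4.92 and 4.1 FPKM across wild-type 1 to 4. Its libraries did not overlap between the genotypes (exact permutation p = 0.0286), as in 9.92% of all genes tested. Its log2 fold change was −0.41 (SE 0.12, limma unadjusted p = 0.00551, adjusted p = 0.31), or −0.27 after rescaling. Irf3 was at −0.22 as deposited and −0.06 after rescaling, and Irf1 at −0.05 and 0.1.

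Other type I interferon-stimulated genes, some of which also stand in the other lists, were compared next. The list does not separate responses to type I interferon from responses to interferon gamma. Of 54 tested from a list of 81, none was called by limma; 24 were higher and 30 lower, with a median of −0.02. Of the 54, 48 lay above the median gene, and their median was 0.11 after rescaling. An unadjusted p under 0.05 was found for Ifi27 alone, or 1.85% of the list against 13.1% of all tested genes, at a log2 fold change of −0.30. The GTPase genes Iigp1 and Tgtp2 had the largest differences of the list, at 0.43 and 0.41 (limma adjusted p = 0.701 and 0.672). Iigp1 was at −0.07 without K320E-skm 3, where its level was 14.5 FPKM, and Tgtp2 was at 0.02 without K320E-skm 1. The most abundant of the list were Ifitm2, Ifitm3 and Ly6e, at −0.10, 0.09 and −0.06, where Ifitm2 and Ly6e were at 0.08 and 0.12 after rescaling.

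The enzymes that attach Isg15 to proteins were the activating enzyme gene Uba7 at −0.11, the conjugating enzyme gene Ube2l6 at 0.0 and the ligase gene Trim25 at −0.08, with Uba7 and Trim25 at 0.03 and 0.04 after rescaling. None of the 4 tested was called. Antigen presentation by MHC class I, which interferon raises, had 18 tested genes, 12 higher and 6 lower, with a median of 0.06 and no call. Of the 18, 16 lay above the median gene, and their median was 0.24 after rescaling. B2m had a mean of 139 ± 46.4 FPKM in K320E-skm, against 136 ± 62.8 FPKM in wild-type muscle (SD, n = 4 each), and H2-K1 ranged over 28.3 to 52.0 FPKM in K320E-skm, against 24.2 to 52.5 FPKM in wild-type muscle. The peptide transporter gene Tap1 was at 0.33 and the immunoproteasome gene Psmb10 at 0.41 (limma adjusted p = 0.603 and 0.458). Tap1 was at 0.12 without K320E-skm 1, and Psmb10 at 0.24 without K320E-skm 3. MHC class I genes are close paralogs, and fragments may be divided among them. Of 13 tested brakes on the pathway none was called, with Pias1 and Pias3 at −0.21 each as deposited and −0.08 and −0.09 after rescaling, Ptpn11 at −0.06 and the abundant Usp13 at −0.05, where both of the last were above 0 after rescaling.

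Many of these genes followed the members across the libraries. Their likeness was measured as Pearson's r of log2(FPKM + 1) with the mean standardized level of the 6 tested members over the 8 libraries, given without a test. Ifit1 is part of this mean, and other genes were not screened for separate sets of libraries. The median r was 0.77 for the other type I interferon-stimulated genes, 0.82 for MHC class I presentation and 0.76 for Isg15 conjugation, against 0.04 for all tested genes. An r of 0.7 or more was reached by 33 of 54, 12 of 18 and 3 of 4 genes of these lists, against 3.12% of the 10515 tested genes that are no members. Receptors and signal carriers had a median r of 0.48, with Irf9, a partner of Stat2, at 0.88. Sensors had a median of 0.58, brakes of 0.28 and the other regulatory factors of −0.02, where Irf1 was at 0.90 and Irf3 at −0.02.

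The genes most alike were Gbp2 (r = 0.989), H2-T23 (0.985), Gbp3 (0.984), Gbp7 (0.974), Lgals9 (0.967), Ifit2 and Ctss (0.956 each), Slc11a1 (0.943) and H2-T24 (0.942). Gbp2, Gbp3 and Gbp7 encode guanylate-binding proteins, H2-T23 a non-classical MHC class I molecule, Lgals9 a galectin, Ctss a protease of antigen-presenting cells and Slc11a1 a metal transporter of macrophages. The tenth was an Ensembl gene with no symbol in GENCODE M21. Gbp2 had values of 5.11, 2.58, 5.39 and 2.32 FPKM across K320E-skm 1 to 4, against 4.69, 3.89, 1.88 and 2.36 FPKM across wild-type 1 to 4, so that 2 mice of each genotype were high. Its log2 fold change was 0.20 (SE 0.29, limma adjusted p = 0.761).

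**Figure D4:**
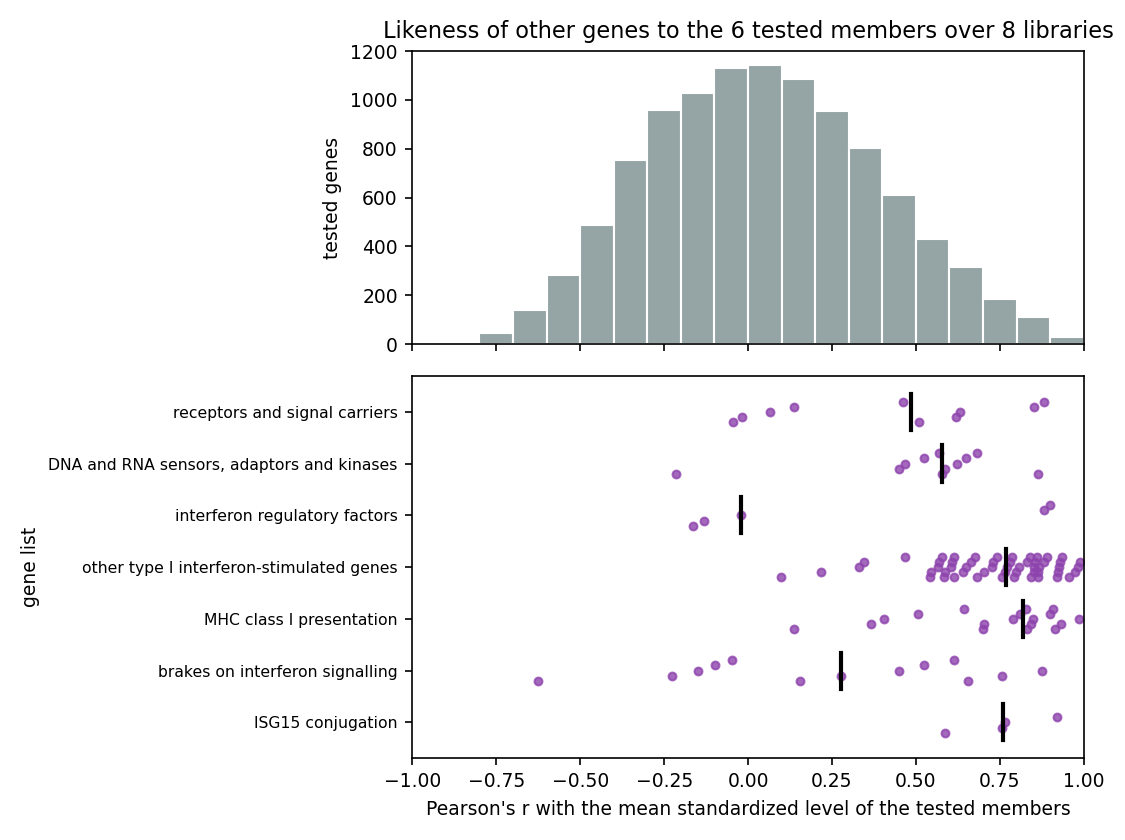
Top, number of tested genes by their Pearson's r with the mean standardized level of the 6 tested members over 8 libraries; bottom, the same r for each tested gene of 7 pathway lists, with a black bar at the median. The medians of the interferon-stimulated, MHC class I and Isg15 conjugation lists are 0.77, 0.82 and 0.76, against 0.04 for all tested genes.

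Markers of leukocytes and of some other cells were high in the same libraries as the members. The sum of 7 general leukocyte markers, Ptprc among them, was 28.1, 23.1, 32.1 and 12.2 FPKM in K320E-skm 1 to 4, against 49.2, 28.3, 10.4 and 13.8 FPKM in wild-type 1 to 4. It overlapped between the genotypes (exact permutation p = 0.857). Its correlation with the members was positive for all 8 used, from r = 0.38 for Rsad2 to r = 0.92 for Ifi27l2a. Ifi27l2a passed the adjustment (exact permutation p = 0.00174, adjusted 0.0156, rho = 0.9, p = 0.00456, adjusted 0.0329), with r = 0.8 without its 2 farthest libraries. Irf7 had r = 0.81 (exact p = 0.0205, adjusted 0.0542, rho = 0.83), and r = 0.98 without K320E-skm 1 and 3.

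Of the 7 general leukocyte markers, 2 had a higher mean in K320E-skm than in wild-type muscle. All 9 macrophage markers did, with ratios from 1.01 for Cd163 to 1.96 for Cd68, and none of the 9 separated the genotypes. Their sum ranged from 49.9 to 138 FPKM in K320E-skm and from 45.4 to 133 FPKM in wild-type muscle (exact permutation p = 0.457), lowest in K320E-skm 4, wild-type 3 and wild-type 4. Plasmacytoid dendritic cell markers, which matter because Bst2 marks these cells in mice, summed to 0.395 to 0.718 FPKM in K320E-skm and 0.447 to 1.03 FPKM in wild-type muscle. Neutrophil markers summed to 25.0 FPKM in K320E-skm 3, to 1.17 to 7.1 FPKM in the other K320E-skm libraries and to 1.21 to 3.31 FPKM in wild-type muscle, with Ly6g listed at 0 in all 8. B and plasma cell markers summed to 15.9 FPKM in wild-type 1 and to at most 3.95 FPKM elsewhere, and T and NK cell markers to at most 2.56 FPKM in any library. The part of these cells in the variation of the members was not tested. With the mean standardized level of the tested members, the log2 sums had r = 0.87 for leukocyte, 0.83 for macrophage, 0.6 for T and NK cell, 0.55 for fibroblast and 0.52 for neutrophil markers. The r was lower for the other sums, at 0.34 for plasmacytoid dendritic cell, 0.32 for B and plasma cell and 0.15 for endothelial markers. For muscle fibre, satellite cell and red blood cell markers it was 0.08, −0.02 and −0.1.

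**Figure D5:**
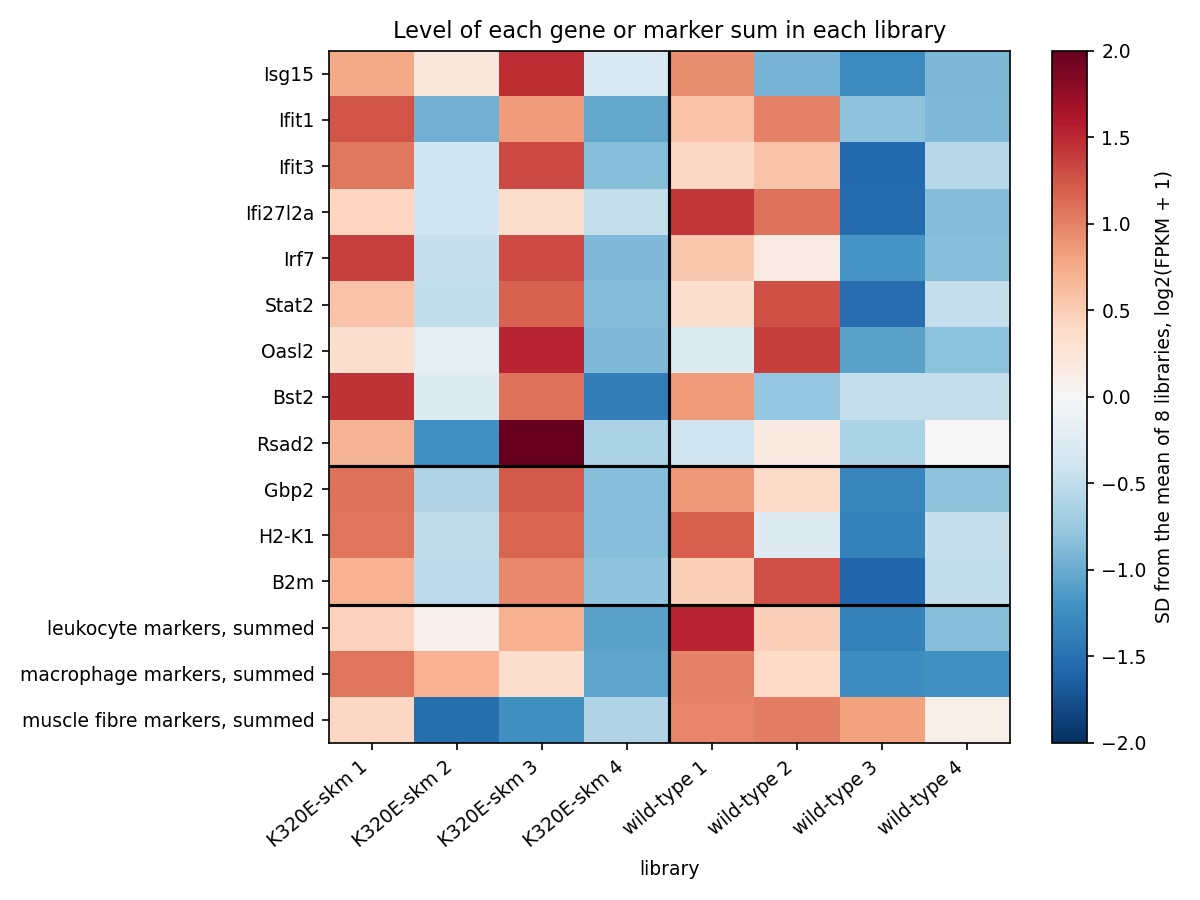
Standardized log2(FPKM + 1) of the 9 members (top block), of Gbp2, H2-K1 and B2m (middle) and of 3 marker sums (bottom) in each library, with K320E-skm left of wild-type; red is above and blue below the mean of the 8 libraries. K320E-skm 1 and 3 and wild-type 1 are red in most rows of the upper blocks, and K320E-skm 4, wild-type 3 and wild-type 4 are blue in most rows.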

How the data were processed

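RNA-seq values of 8 libraries, 4 K320E-skm and 4 wild-type, came as 1 table of gene-level FPKM that the authors deposited. The library kit was stranded, per the labels. TopHat2 2.0.10, Cufflinks 2.1.1 and CASAVA are named with mm10, per the submitters' processing notes. For annotation, strand setting and bias correction, details are not given in the sources. All 8 columns matched a sample, 0 were left unmapped, and no 2 libraries were identical. GENCODE M21 matched 47864 IDs and left 464 unmatched. Each column name carries its own number and a letter that matches the sex label, and the samples were read as 8 separate mice. The labels do not state this outright. P-values reflect only the spread among these 8 samples, part of which may be technical.

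Log2(FPKM + 1) was tested by limma 3.58.1 (R 4.3.3) in a model of sex label plus genotype with a trended empirical Bayes prior, two-sided, on 10521 genes with 1 FPKM or more in at least 4 libraries, with Benjamini-Hochberg adjustment over all of them. On this scale low genes show less than their FPKM ratio. On simulated data for this comparison, on 10521 genes, 81 of 100 genes changed by 1 and 94 of 100 changed by 2 on the log2 scale were recovered, with 6 false calls. Noise was drawn independently for each gene, and the changed genes were picked at random. These shares are averages over tested genes and were not measured for the members, whose SE were 0.24 to 0.50. For single values, genotypes were set against each other by exact two-sided permutation over 70 assignments, and correlations by exact permutation over 40320 pairings. Members whose log2 levels showed 1 gap over 50% of their range, with 3 or more libraries on each side, were left out of pairwise correlations. This rule was made after seeing the data and was applied to the members and the summed leukocyte markers only. Other genes and marker sums were not screened, and Ifit1 stayed in the mean level of the 6 tested members.

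Fragments per library were estimated from the smallest FPKM steps of 355 single-transcript genes of 5 kb or more. There, 80.6% to 92.1% of values up to 5 fragments lay within 0.1 of a whole number. Fragments per member use annotated transcript lengths and are approximate.

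The members and lists were chosen with earlier results of these data known. Named list genes were, per list, the 3 with the highest FPKM, the 2 with the largest fold change and any called, apart from the 10 genes most alike. Cgas, Tmem173, Ikbke, Ifnk, Ifi27, Ifit3b, Irf9 and the marker genes given with values were named after their values were seen. Irf8, Pyhin1 and Acta1 were not analysed here. Alternatives changed the pseudocount (0.1), the filter (none, or 5 FPKM), the scaling (median-ratio, quantile), the model (no sex term, a replicate block, robust empirical Bayes) and the libraries (each left out). Python 3.11.15, pandas 2.3.3, scipy 1.17.1 and matplotlib 3.10.9 were used.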

Additional observations from a re-analysis of the deposited data

Results flagged for a closer look

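In 8 of 76 groups of 4 libraries, 1 library stood far from the other 3, where chance gives about 1 in 20 groups. The figure given is the gap to the nearest library as a share of the group's range, which was above the 95% critical value of Dixon's test.

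Among the members, wild-type 1 stood above the other wild-type libraries for Isg15 (0.952 FPKM, share 0.866) and for Bst2 (7.6 FPKM, share 0.867). Of the upstream genes, wild-type 1 was high for Jak1 (19.5 FPKM, share 0.835) and Jak2 (6.83 FPKM, share 0.95). Wild-type 3 was low for Ifih1 (1.16 FPKM, share 0.867). In K320E-skm muscle, replicate 4 was high for Irf2 (3.72 FPKM, share 0.889), replicate 2 for Pias1 (3.55 FPKM, share 0.913) and replicate 3 for Samhd1 (9.0 FPKM, share 0.858).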

How the results depend on the processing

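Limma called 2 genes and none of the members, with 1 gene called without the filter on low values, 1 with a filter of 5 FPKM, and 2 to 3 with 1 library left out. No alternative brought a member under an adjusted p of 0.05. The median log2 fold change of the members was 0.21 as deposited, ranged from 0.03 to 0.45 with 1 library left out, and was −0.03 with a filter of 5 FPKM, which leaves Ifi27l2a alone. The next counts, of 10 and of 20 genes, cover only the tested members and the genes named from each list by level or difference. Other genes of the lists were not counted. Rescaling turned 10 of these log2 fold changes positive, and the median of all genes was −0.14 as deposited and 0.00 rescaled. Under median-ratio and quantile scaling the values were Ifi27l2a 0.14 and 0.10, Ifitm2 0.08 and 0.05, Ifngr2 0.10 and 0.08, Irf1 0.10 and 0.09, Ly6e 0.12 and 0.09, Mavs 0.05 and 0.03, Ptpn11 0.10 and 0.08, Trim25 0.04 and 0.04, Uba7 0.03 and 0.02, Usp13 0.12 and 0.12. With 1 library left out, the log2 fold changes of 20 genes reached 0.00 or changed sign, with lowest to highest values of B2m −0.18 to 0.33, Bst2 0.00 to 0.65, Calr −0.12 to 0.18, H2-K1 −0.01 to 0.43, Ifi27l2a −0.52 to 0.43, Ifit1 −0.16 to 0.17, Ifitm2 −0.28 to 0.11, Ifitm3 −0.14 to 0.32, Ifngr1 −0.03 to 0.20, Ifngr2 −0.22 to 0.13, Iigp1 −0.07 to 0.95, Irf1 −0.20 to 0.14, Ly6e −0.21 to 0.13, Oasl2 −0.02 to 0.36, Ptpn11 −0.14 to 0.01, Samhd1 −0.09 to 0.22, Trim25 −0.16 to 0.08, Uba7 −0.32 to 0.08, Ube2l6 −0.11 to 0.14, Usp13 −0.18 to 0.05. The cause of these changes was not tested.

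The pairs of members with an adjusted p under 0.05 numbered 4, against 9 after median-ratio rescaling, 8 with a pseudocount of 0.1, 7 with genotype means subtracted, 0 without the 2 farthest libraries, where fewer libraries remain, and 3 without K320E-skm 4. The 2 farthest libraries were those farthest from the median of the first gene of each pair. Without them, r was −0.11 for Isg15 and Oasl2, −0.06 for Isg15 and Rsad2 and −0.06 for Bst2 and Rsad2. With Ifit1 kept in, 3 of 36 pairs passed. That alternative and the correlations without K320E-skm 4 were chosen after seeing the data.

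The labels do not say whether samples with the same replicate number were paired. The correlations of their deviations were 0.156, 0.023, 0.044 and 0.04, and 3 of 4 K320E-skm samples correlated best with their own number. With the replicate number as a block, 2 genes were called and the members' median was 0.21.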
